A study of Mus musculus with 2 samples.

Results

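Tagln-expressing stellate cells are cells of WT replicate 2 that hold at least 10 UMIs (unique molecules) of Dcn, at most 3 UMIs of Acta2, Cnn1 and Actg2 together, and at least 2 UMIs of Tagln. There were 401 such cells among 2341 cells of that library and 9703 cells of the series. Both samples, WT replicate 1 and WT replicate 2, are untreated livers of 8-week-old C57BL/6 mice, dissociated by enzymes and cleaned with Percoll at 25% and 50%. The labels do not say whether the samples came from separate animals, or how cells were enriched. The cells used for comparison are of the same kind in the same library but hold no UMI of Tagln. The series carries a title on perivenous stellate cells as a source of myofibroblasts, and all cells here are from healthy tissue.

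Hepatic stellate cells are the pericytes of the liver sinusoid. They store vitamin A as retinyl esters made by Lrat, and they line the vessels with long processes that can contract. After injury they can turn into myofibroblasts, which carry actin stress fibres and lay down collagen. Tagln encodes transgelin, an actin-binding protein of the calponin family that is abundant in smooth muscle and rises early in cells that become myofibroblasts. Acta2, Cnn1 and Actg2 are smooth muscle genes too, so the limit on them keeps classical smooth muscle cells out.

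The library of WT replicate 2 summed to 11867207 UMIs over its 2341 cells, and that of WT replicate 1 to 40645060 UMIs over 7362 cells. Of the cells of replicate 2, 2340 held at least 10 UMIs of Dcn, and 2334 of these also met the limit on smooth muscle genes. The libraries share 5 barcodes. Scrublet called 12 doublets in replicate 2, of which 2 were Tagln-expressing cells.

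The threshold cut through a continuous range of Tagln counts. Of the 2334 cells, 1590 (68.1%) had no UMI of Tagln, 343 (14.7%) had 1, 140 (6.00%) had 2 and 101 (4.33%) had 3. The remaining 160 had 4 or more, and the highest cell had 32. Among the 401 Tagln-expressing cells, 140 (34.9%) stood just inside the threshold with 2 UMIs, and 17 (4.24%) had at least 10. Their median was 3 UMIs. Tagln lies on chromosome 9 (chr9:45929628-45936058, GRCm38).

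**Figure D1:**
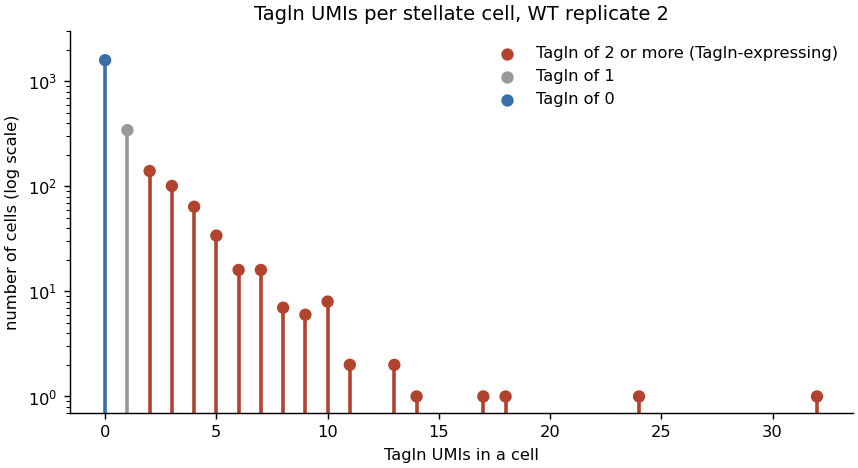
Number of cells (log scale) at each number of Tagln UMIs per cell, in 2334 stellate cells of WT replicate 2 with Dcn of at least 10 and few smooth muscle UMIs. Red marks the 401 Tagln-expressing cells, grey the 343 cells with 1 UMI and blue the 1590 cells with 0; there is no gap between them.

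Tagln was unevenly spread over these cells beyond what depth gives. In 2112 cells thinned to 3000 UMIs each, the variance of Tagln counts was 2.87 times their mean of 0.520 UMIs. The 50 genes nearest in mean level had a median ratio of 1.07, and the highest of them, the actin-severing gene Gsn, had 2.79. Of the thinned cells 25.1% held Tagln (95% interval 23.3 to 27.0) and 11.9% held at least 2 UMIs (10.6 to 13.4), from cells of median 5196 UMIs. Other cell types of replicate 1 that should lack Tagln gave the background, as replicate 2 held almost nothing but stellate cells. Among 1477 Dcn-free cells with at least 3 UMIs of the Kupffer gene Clec4f, 0.203% held Tagln (0.0419 to 0.592; median 5803 UMIs before thinning). Among 1668 such cells chosen by the endothelial gene Stab2, 0.420% did (0.169 to 0.863; median 5623 UMIs). None of either set held 2 UMIs of Tagln after thinning, which allows up to 0.249% and 0.221% by the exact intervals. This background comes from another library than the stellate cells, and from cells chosen to hold no Dcn. In replicate 1, 330 of 7362 cells held at least 10 UMIs of Dcn, against 2340 of 2341 in replicate 2. These shares thus do not measure free stellate RNA in replicate 2, and its part in the Tagln counts was not tested.

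The Tagln-expressing cells carried the markers of stellate cells. Lrat was seen in 97.0% of them (94.8 to 98.4) and in 97.8% of the depth-matched Tagln = 0 cells (95.8 to 99.0). Its level was 1116 CPM (UMIs scaled to a sum of 1000000) in Tagln-expressing cells and 1112 CPM in matched cells, a ratio of 1.004 (0.949 to 1.06). Reln was seen in 99.5% and 100% of cells, and the collectin gene Colec11 in every cell of both sides. Hgf was seen in 96.3% of Tagln-expressing cells and 99.0% of matched cells. Of the 6 cells of replicate 2 above the limit on smooth muscle genes, 6 also held Reln and 4 held Lrat. Presence of these genes thus does not by itself tell stellate cells from other cells of this library. Median depth was 5289 UMIs in Tagln-expressing cells and 5287 in their matched partners, against 4894 in all 1590 Tagln = 0 cells. The median mitochondrial share was 1.53% in Tagln-expressing cells and 1.51% in matched cells. After thinning, 1575 genes were seen per Tagln-expressing cell and 1564 per Tagln = 0 cell at the median.

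The rule's own genes describe the choice of cells and nothing more. Tagln stood at 704 CPM (670 to 740; 1560 UMIs) and by construction at 0 in the matched cells. Acta2, smooth muscle actin, had 23 UMIs in 16 of 401 Tagln-expressing cells, against 1 UMI in the matched cells. Cnn1 and Actg2 had 0 UMIs on both sides, which allows up to 1.67 CPM by the exact interval. Dcn stood at 24364 CPM in Tagln-expressing cells and 28546 CPM in matched cells.

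The first comparison set the 401 Tagln-expressing cells against their 401 matched partners, to see which other genes differ with Tagln. Genes past 1.5-fold included the myosin light chain Myl9, the tropomyosins Tpm1 and Tpm2, the collagen chain Col1a1, the growth factor carrier Igfbp3 and the neurotrophin receptor Ngfr, which were higher. Genes lower in Tagln-expressing cells included the Wnt enhancer Rspo3, the lectin-pathway gene Fcna and the lipoprotein gene Apoc1. Of 5943 genes read, 94 (1.58%) were higher in Tagln-expressing cells by 1.5-fold or more and 48 (0.808%) were lower by as much. No test was run, since both sides are cells of 1 library.

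Promoter windows were searched for the 26 named genes at least 1.5-fold higher, of which 17 had windows. Of these 17, Myl9, Cnn2, Lama2 and Tpm1 have a window that holds a CArG box or the letters GGAATG of TEAD sites. The windows of these 4 are shown so that the motif can be seen beside the values. The CArG box is the known site of serum response factor, which drives many actin cytoskeleton genes. Sequences are RefSeq windows of GRCm38.p6 from 250 bases before to 50 after a start site, read 5′ to 3′ on the gene's strand, with the motif in capitals. A gene can have several start sites. Those used for Myl9, Lama2 and Tpm1 lie inside the gene's span, and that of Cnn2 lies at its outermost start. Myl9 (chr2:156775214-156775513, plus strand) and Cnn2 (chr10:79988350-79988649, plus strand) hold a CArG box that begins at position -161 and -56 from the start site. Lama2, a laminin chain gene (chr10:27616893-27617192, minus strand), holds one at position -39. Tpm1 (chr9:67049164-67049463, minus strand) holds GGAATG.
Myl9: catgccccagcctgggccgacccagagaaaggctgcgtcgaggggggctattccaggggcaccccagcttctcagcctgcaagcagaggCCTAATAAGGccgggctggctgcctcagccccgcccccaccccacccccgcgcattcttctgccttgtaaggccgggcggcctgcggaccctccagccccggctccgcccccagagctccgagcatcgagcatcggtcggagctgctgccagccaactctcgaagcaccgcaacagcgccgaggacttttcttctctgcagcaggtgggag
Cnn2: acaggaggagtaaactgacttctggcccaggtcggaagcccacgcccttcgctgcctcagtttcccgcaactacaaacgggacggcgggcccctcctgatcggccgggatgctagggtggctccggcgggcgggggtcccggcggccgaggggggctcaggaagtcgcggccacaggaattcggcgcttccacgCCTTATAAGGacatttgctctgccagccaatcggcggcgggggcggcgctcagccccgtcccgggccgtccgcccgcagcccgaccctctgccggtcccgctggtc
Lama2: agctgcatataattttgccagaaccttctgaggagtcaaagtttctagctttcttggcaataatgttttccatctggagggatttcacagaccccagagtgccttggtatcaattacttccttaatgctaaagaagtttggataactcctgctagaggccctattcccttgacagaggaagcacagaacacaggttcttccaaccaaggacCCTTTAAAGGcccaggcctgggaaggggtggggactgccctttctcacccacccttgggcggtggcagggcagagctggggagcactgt
Tpm1: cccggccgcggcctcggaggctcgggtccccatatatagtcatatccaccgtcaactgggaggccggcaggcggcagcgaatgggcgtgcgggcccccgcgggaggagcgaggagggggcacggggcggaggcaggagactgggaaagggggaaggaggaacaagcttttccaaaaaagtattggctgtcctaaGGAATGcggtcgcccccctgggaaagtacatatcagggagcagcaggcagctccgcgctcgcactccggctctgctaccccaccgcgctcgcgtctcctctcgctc
Of the 15 leading higher genes, 12 had windows, 21 in all, and 2 of these windows (9.52%) held a CArG box. Among all 32851 windows 535 (1.63%) did. The letters GGAATG, searched on both strands, stood in 1 of the 21 windows (4.76%) and in 14.7% of all windows. Of the 26 windows of the 17 named higher genes, 3 (11.5%) held a CArG box and 1 (3.85%) held GGAATG. None of the 6 windows found for the 10 leading lower genes held either motif. A match is a stretch of letters in this window, and binding was not measured.

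A few contractile genes passed 1.5-fold, and most genes of the thin filament and myosin lists did not. Myl9, the regulatory myosin light chain, stood at 186 CPM (168 to 205) in Tagln-expressing cells and 70.4 CPM (59.7 to 82.4) in matched cells, 2.64-fold higher (2.19 to 3.20). It was seen in 56.9% of Tagln-expressing cells against 28.4% of matched cells, and no cell held more than 8 UMIs. Tpm2 was 2.11-fold higher (1.73 to 2.57; 145 against 69.0 CPM) and Tpm1 1.85-fold (1.62 to 2.12; 292 against 158 CPM). The LIM-domain gene Crip1 was 2.36-fold higher (2.03 to 2.75), at 268 CPM in Tagln-expressing cells and 114 CPM in matched cells. Of 17 thin filament and calponin family genes read, 4 passed 1.5-fold, these 3 and the calponin Cnn2 (1.63-fold, 1.32 when paired within ranges of the landmark score used below), and none was lower. Of the 17, 16 had a ratio above 1, with a median log2 ratio of 0.21 against 0.01 over all genes read. Among 18 myosin and regulator genes Myl9 was the only one past 1.5-fold, and the median was 0.09. The kinase Mylk had a ratio of 1.17 (1.07 to 1.28), the phosphatase inhibitor Ppp1r14a 1.38 and the kinase Rock2 1.25.

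Adhesion sites and intermediate filaments had 1 of 17 genes past 1.5-fold, Vim (1.69-fold, 1.55 to 1.84; 660 against 391 CPM). Of these 17 genes 16 lay above a ratio of 1, with a median log2 of 0.20. Vinculin Vcl (1.45) and filamin Flna (1.43) stood just under the threshold, and desmin Des at 1.24. Of 14 genes of the SRF and YAP list, which holds cofactors and known targets of these actin-sensing regulators, 2 were higher. They were Thbs1, thrombospondin (2.72-fold, 1.92 to 3.91), and Ccn2, a matricellular growth factor (1.53-fold, 1.37 to 1.71). Yap1 itself had a ratio of 0.770 (0.606 to 0.977), and the list's median log2 was 0.10.

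**Figure D2:**
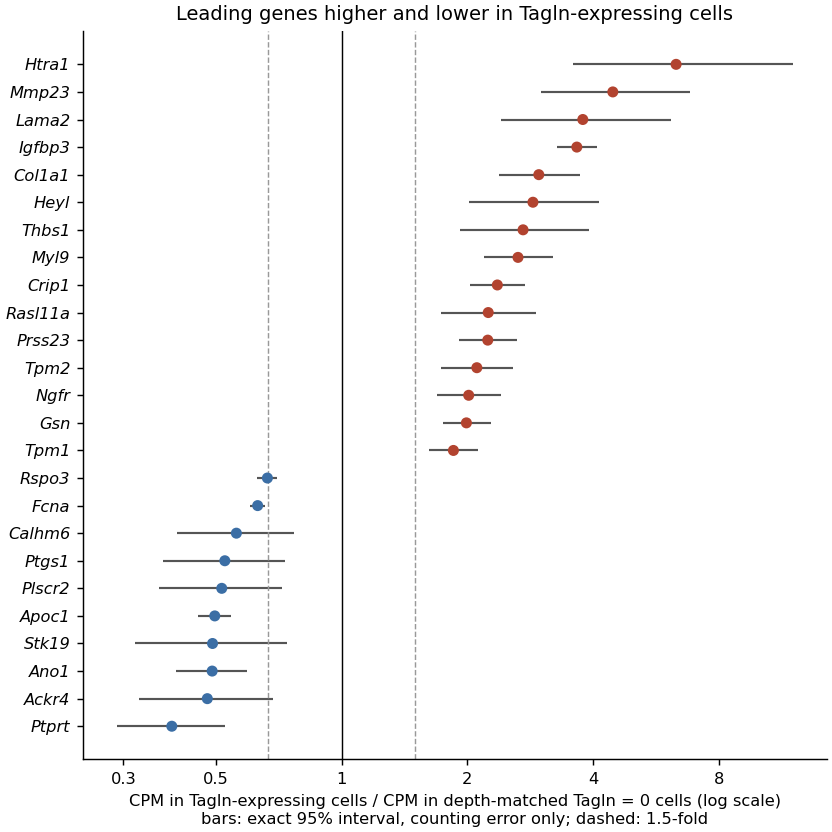
Ratio of CPM in 401 Tagln-expressing cells over 401 depth-matched Tagln = 0 cells (log scale), for the 15 leading higher and 10 leading lower genes; bars are exact 95% intervals of counting error and dashed lines mark 1.5-fold. Htra1 leads at 6.32-fold with a wide interval, and Ptprt is lowest at 0.392.

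Several of the other leading genes encode matrix proteins or proteases. Htra1, a secreted serine protease of the matrix, had 89 UMIs in Tagln-expressing cells and 14 in matched cells, 6.32-fold higher (3.58 to 12.03). It was seen in 13.7% and 2.99% of cells, so most Tagln-expressing cells held no UMI of it. The metalloprotease Mmp23 was 4.46-fold higher (3.003 to 6.81; 62.8 against 14.1 CPM) and Lama2 3.78-fold (2.41 to 6.13; 42.9 against 11.4 CPM). Col1a1 stood at 144 CPM (319 UMIs) in Tagln-expressing cells and 48.6 CPM (107 UMIs) in matched cells, 2.96-fold higher (2.37 to 3.73). Of 20 collagens and fibrosis genes read, 4 were past 1.5-fold and none lower. The other 3 were fibronectin Fn1 (1.77-fold, 1.45 when paired within those ranges), the crosslinking enzyme Loxl2 (1.71-fold) and the basement membrane chain Col4a2 (1.59-fold, 1.43 within ranges). Of the 20, 18 lay above a ratio of 1, and the median log2 of 0.39 was the highest among lists of more than 4 genes. Col3a1, at 822 and 569 CPM, had a ratio of 1.44 (1.34 to 1.55). The secreted protease gene Prss23 (2.24-fold) and the Ras-like gene Rasl11a (2.24-fold) were also among the leading genes. The Rasl11a value depended on the cells compared, with a ratio of 1.67 against all Tagln = 0 cells and 1.39 after thinning. Gsn, whose product severs actin filaments, was 1.99-fold higher (1.74 to 2.27). Of its 680 UMIs in Tagln-expressing cells 363 lay in 38 cells, and the other 363 cells stood at 160 CPM against 154 CPM in matched cells. Without cells that held a UMI of portal fibroblast genes its ratio was 1.45.

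Igfbp3, the main carrier of insulin-like growth factors, stood at 699 CPM (1548 UMIs) in Tagln-expressing cells and 191 CPM (421 UMIs) in matched cells. The ratio was 3.66 (3.28 to 4.08), and 74.3% of Tagln-expressing cells held it against 43.1% of matched cells. Ngfr was 2.01-fold higher (1.69 to 2.40; 180 against 89.4 CPM). Both belong to 4 landmarks of portal-side stellate cells, of which Il34 had a ratio of 1.45 and Itgb3 of 1.09 (0.911 to 1.31). Of the 4 central landmarks none was past 1.5-fold either way, with Podn at 0.770, Adamtsl2 at 0.823, Spon2 at 1.04 and Loxl1 at 1.24. Among 14 pericyte and mural genes 3 were higher: the Notch target Heyl (2.87-fold, 2.02 to 4.14), Ndufa4l2 (1.80-fold, 1.47 within ranges) and the G protein regulator Rgs4 (1.56-fold, 1.05 within ranges). Rgs5, a common pericyte marker, went the other way with 1873 against 2566 CPM (ratio 0.730, 0.701 to 0.760), and the potassium channel gene Kcnj8 had 0.693. The list's median log2 was 0.05.

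Stellate identity genes were mostly at or below the matched level. Of 25 genes read 1 was past 1.5-fold, Rspo3, at 949 CPM in Tagln-expressing cells and 1431 CPM in matched cells (ratio 0.664, 0.628 to 0.702; 0.755 when paired within ranges). Hepatocyte growth factor Hgf (0.773), the transcription factor Hand2 (0.761), the hedgehog-binding Hhip (0.730) and Reln (0.858) were within the threshold, and the median log2 was -0.09. Among the leading lower genes, Ptprt, a receptor phosphatase, had 65 against 165 UMIs (ratio 0.392, 0.289 to 0.525). Apoc1 stood at 316 against 636 CPM (0.496, 0.453 to 0.544), and the chloride channel gene Ano1 at 70.9 against 145 CPM (0.489). Fcna, which encodes a ficolin, stood at 1761 against 2799 CPM (0.629, 0.604 to 0.655). The chemokine scavenger Ackr4 (0.476), Stk19 (0.490), the scramblase Plscr2 (0.516), the cyclooxygenase Ptgs1 (0.525) and Calhm6 (0.559) had between 36 and 63 UMIs each in Tagln-expressing cells and between 73 and 112 in matched cells.

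Inflammatory and stress genes gave a mixed picture. Of 12 chemokine and inflammatory genes read, 2 were past 1.5-fold, Ccl2, the monocyte attractant (1.71-fold, 1.56 to 1.88; 569 against 332 CPM), and Cxcl1 (1.77-fold, 1.51 to 2.08). Both ended within 1.5-fold when paired within ranges (Ccl2 1.202, Cxcl1 1.45), and Ccl2 was lower in Tagln-expressing cells of the central range, as given below. The list's median log2 was 0.24. Ccl2 was seen in 41.9% of Tagln-expressing cells and 37.7% of matched cells, and single cells reached 56 UMIs. None of 24 immediate early and heat shock genes passed 1.5-fold, with Fos at 3906 against 3774 CPM (ratio 1.03, 1.004 to 1.07). None of 14 TGF-beta target and pathway genes did either, with Pmepa1 at 1.18, Tgfbi at 0.843 and Bambi at 0.791. Cell cycle genes could be read for 3 of 14, and none passed.

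The second question was whether levels follow the number of Tagln UMIs or stand apart at the threshold. Cells were classed by their Tagln UMIs before thinning, so a cell's class still depends on its depth. Levels were read after thinning to 3000 UMIs. This left 1415 cells with no Tagln, then 313, 129, 98 and 157 cells with 1, 2, 3 and 4 or more UMIs. Myl9 stood at 66.2, 127, 114, 156 and 238 CPM in these classes, from 0 to 4 or more UMIs. Crip1 stood at 138, 174, 202, 255 and 316 CPM, and Igfbp3 at 237, 571, 514, 718 and 786 CPM. Cells with 1 UMI, just outside the threshold, thus lay between the end classes for these genes. The leading genes were chosen by their ratios in these same cells, so low levels at 0 for the higher genes follow in part from that choice. Cells with 1 UMI took no part in it, and such counts over all genes are not given here. Of the 15 leading higher genes, 15 were higher at 1 UMI than at 0, 14 were lowest at 0, and 13 were highest at 4 or more. The exception at the low end was Rasl11a, with 57.3 CPM at 4 or more UMIs and 59.4 CPM at 0. Col1a1 stood at 54.4, 82.0, 106, 91.8 and 187 CPM. On the lower side Fcna stood at 2775, 2164, 2047, 1983 and 1456 CPM, and Rspo3 at 1407, 1055, 1152, 912 and 813 CPM. Apoc1 was lowest at 3 UMIs, with 231 CPM against 657 CPM at 0. Of the 10 leading lower genes 1 was higher at 1 UMI than at 0, and 4 were higher at 4 or more UMIs than at 2. These 4 had few UMIs: Ptgs1 stood at 36.1 CPM at 4 or more UMIs and 18.1 CPM at 2, Calhm6 at 36.1 and 23.3 CPM, Plscr2 at 29.7 and 18.1 CPM, and Ackr4 at 17.0 and 15.5 CPM.

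**Figure D3:**
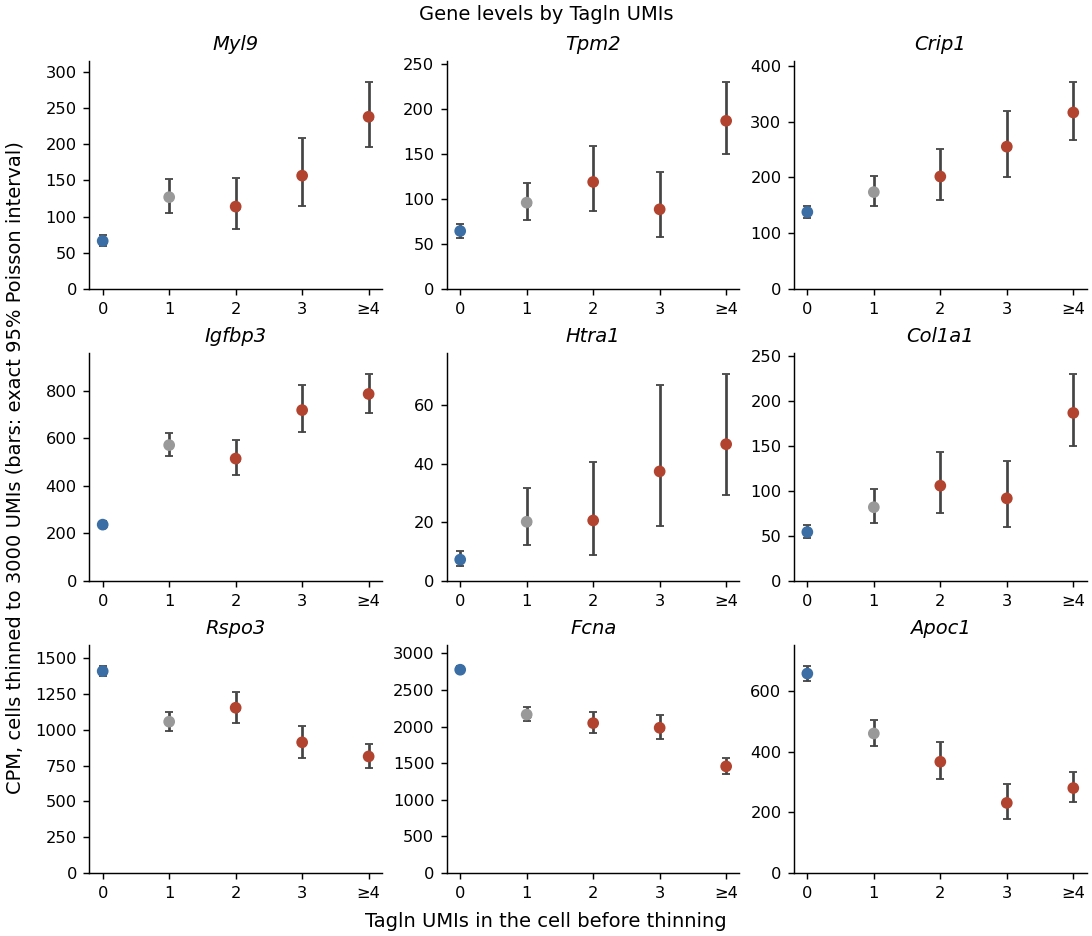
CPM of 9 genes in cells with 0, 1, 2, 3 or at least 4 Tagln UMIs before thinning (1415, 313, 129, 98 and 157 cells). Levels are from cells thinned to 3000 UMIs, and bars are exact 95% Poisson intervals. Myl9, Crip1 and Igfbp3 are lowest at 0 and highest at 4 or more UMIs, while Fcna and Rspo3 run the other way.

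The third question was where Tagln-expressing cells stand along the central to portal axis of the lobule, which was read from landmark genes and not from tissue. A score of 4 central against 4 portal landmarks ordered the 2334 cells, which gave a central, a middle and a portal range of 778 cells each, and 345 cells lay within 0.1 of a boundary. These are ranges of a score and not cell types. After thinning to 3000 UMIs, 8.84% of cells of the central range held at least 2 UMIs of Tagln (6.83 to 11.2), 9.54% of the middle range (7.48 to 11.9) and 17.3% of the portal range (14.6 to 20.3). Without thinning the shares were 12.1%, 13.8% and 25.7%. Of the 401 Tagln-expressing cells, 94 (23.4%) fell in the central, 107 (26.7%) in the middle and 200 (49.9%) in the portal range. Tagln-expressing cells were thus found in all ranges, and the interval of the portal share lay above those of the other ranges. Igfbp3 and Ngfr, 2 of the 4 portal landmarks, were themselves higher in Tagln-expressing cells (3.66-fold and 2.01-fold). A cell with Tagln can thus score as portal through these genes wherever it lay, and their part in the share was not tested.

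Within each range the Tagln-expressing cells were again paired with Tagln = 0 cells of the same range. The leading genes had been chosen from these same Tagln-expressing cells, so a shared direction over the ranges follows in part from that choice. The 15 leading higher genes were all above a ratio of 1 in each range, and 11 of them past 1.5-fold in each. Of the 10 leading lower genes 9 were below 1 in each range and 2 past 1.5-fold in each. Within single ranges 1742, 1986 and 3721 genes were read, of which 3.1%, 2.57% and 1.37% were at least 1.5-fold higher (central, middle and portal), and 1.78%, 1.46% and 0.941% lower. Myl9 differed alike along the axis, with 188, 164 and 196 CPM in Tagln-expressing cells of the central, middle and portal range, against 67.1, 66.5 and 79.9 CPM in their partners. Col1a1 stood at 280, 160 and 74.2 CPM in Tagln-expressing cells, against 80.9, 38.5 and 23.4 CPM. Its ratio was 3.46 (2.43 to 5.03), 4.17 (2.59 to 6.97) and 3.18 (2.03 to 5.14), so it was higher beside Tagln in each range while its level was highest at the central end. Gsn had the same order, with 657, 246 and 180 CPM against 264, 96.3 and 71.9 CPM.

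Other genes were highest in the portal range. Of these, Igfbp3 is a landmark of the score, so its rise along the ranges follows from how they were made. Igfbp3 stood at 243, 448 and 1031 CPM in Tagln-expressing cells of the central, middle and portal range, against 92.8, 170 and 491 CPM in their partners. Heyl had 93.7 CPM in Tagln-expressing cells of the portal range against 35.0 CPM (2.67-fold, 1.84 to 3.97), and its ratios of 1.74 and 1.39 in the other ranges rested on 7 against 4 and 14 against 10 UMIs. Igfbp3 and Ngfr took part in the score, so pairing within ranges also removes part of their difference. Paired within ranges and summed, Igfbp3 was 2.22-fold and Ngfr 1.55-fold higher. In this pairing 26 of 35 named genes stayed past 1.5-fold, and Ptgs1 (0.688) was among those that did not. Ccl2 was lower in Tagln-expressing cells of the central range, at 122 against 296 CPM (0.410, 0.3002 to 0.555), and higher in the portal range, at 888 against 682 CPM (1.30, 1.18 to 1.43).

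**Figure D4:**
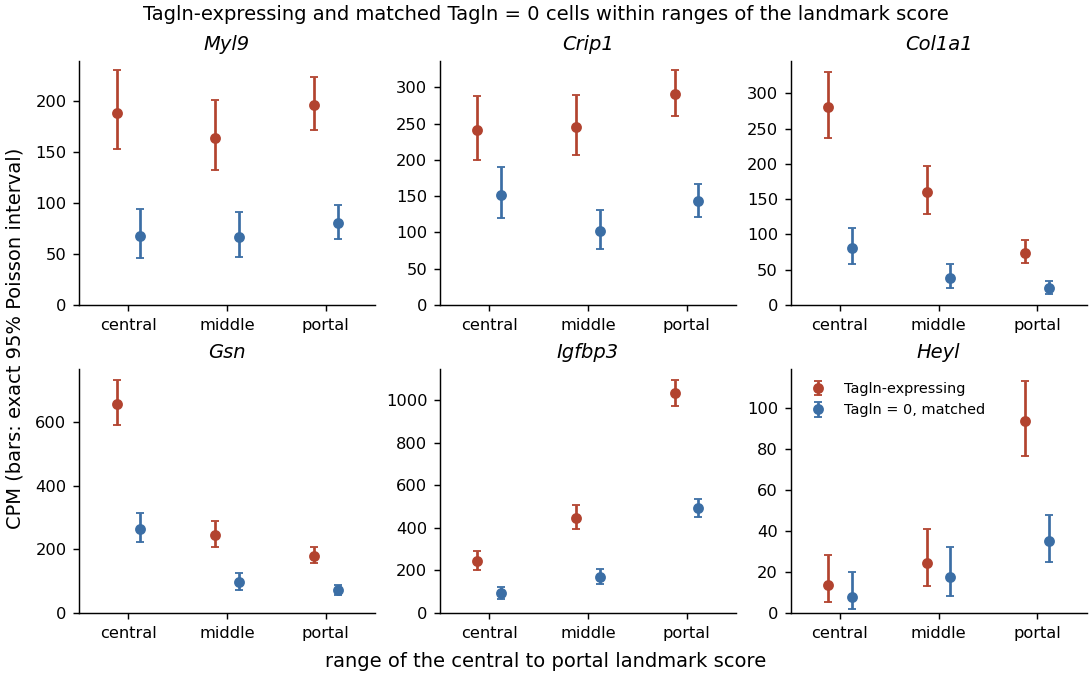
CPM of 6 genes in Tagln-expressing cells (red) and matched Tagln = 0 cells (blue) of the central, middle and portal range of the landmark score (94, 107 and 200 cells a side); bars are exact 95% Poisson intervals. Myl9 differs alike in each range, Col1a1 and Gsn are highest at the central end and Igfbp3 and Heyl at the portal end. Igfbp3 is a landmark of the score, so its order follows from how the ranges were made.

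Smooth muscle markers were summed beside the results as well. The smooth muscle myosin Myh11 had 52 UMIs in 37 Tagln-expressing cells and 9 UMIs in matched cells (5.75-fold, 2.81 to 13.3), with 50 of 52 UMIs in the portal range. Of 8 smooth muscle markers outside the rule, Myocd, Pln and Casq2 had 0 UMIs on both sides. Lmod1 had 11 UMIs in 10 Tagln-expressing cells and 0 UMIs in matched cells, while Synpo2 had 15 and 34 UMIs. The list summed to 748 CPM in Tagln-expressing cells and 786 CPM in matched cells. Most of that sum was Mustn1 (945 and 1180 UMIs) and Des (633 and 508 UMIs). The part of smooth muscle RNA in the results was not tested.

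Markers of other cell types were summed on both sides. Sinusoidal endothelial genes summed to 1093 CPM in Tagln-expressing cells and 1259 CPM in matched cells (0.869), and none of 10 was at 0. Kupffer genes summed to 140 CPM in Tagln-expressing cells and 129 CPM in matched cells, with none of 10 at 0, lymphocyte genes to 28.9 against 18.6 CPM, with 7 of 10 at 0, and cholangiocyte genes to 27.1 against 16.8 CPM, with 6 of 8 at 0. Hepatocyte genes, none at 0, summed to 603 CPM in Tagln-expressing cells and 965 CPM in matched cells (0.625), of which Apoc1 gave 699 and 1400 UMIs, while Alb had 55 and 66. The mesothelial list summed to 12.6 CPM in Tagln-expressing cells and 1.82 CPM in matched cells. All of it was Wt1, with 28 and 4 UMIs, and the other 9 genes, Msln and Upk3b among them, had 0 UMIs in Tagln-expressing cells. The part of these other kinds of RNA in the results was not tested. The portal fibroblast list summed to 73.6 CPM in Tagln-expressing cells and 32.2 CPM in matched cells (2.28-fold, 1.72 to 3.06). Its difference came from Dpt (41 and 1 UMIs) and Mgp (50 and 0 UMIs, in 7 cells), while Eln had 57 and 56 UMIs, Thy1 and Cd34 had 1 UMI on each side and Col15a1, Fbln2 and Pi16 had 0 in Tagln-expressing cells. The part of these cells in the results was read by leaving out every cell with a UMI of the portal fibroblast list. Then 72 (1.40%) of 5125 genes read were higher and 44 (0.859%) lower over 320 pairs, 44 and 20 of them shared with the calls above. Of the named genes, Ccn2 (1.37), Cnn2 (1.48), Cxcl1 (1.45), Gsn (1.45) and Rspo3 (0.671) then fell within 1.5-fold.

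A subset of the Tagln-expressing cells stood out by Gsn, and this cut was made after the values were seen. At least 5 UMIs of Gsn were held by 38 of 401 Tagln-expressing cells (9.48%, 6.79 to 12.8) and by 26 of 1590 Tagln = 0 cells (1.64%, 1.07 to 2.39). Of the 38 cells, 23 lay in the central range, as did 22 of the 26 Tagln = 0 cells. The 38 cells held Mgp at 164 CPM (in 5 cells), Dpt at 110 CPM (13 cells) and Wt1 at 50.6 CPM (9 cells). The other 363 Tagln-expressing cells stood at 5.56, 7.58 and 8.09 CPM. In the 26 Tagln = 0 cells with as much Gsn, Wt1 stood at 60.6 CPM (27.7 to 115). Mgp stood at 26.9 CPM and Dpt at 6.73 CPM in these 26, each in 1 cell. Col1a1 stood at 400 CPM (324 to 489) in the 38 cells and 113 CPM (98.9 to 129) in the 363, and Vim at 1327 and 579 CPM. In the 26 Tagln = 0 cells Col1a1 stood at 182 CPM (120 to 264) and Vim at 686 CPM (560 to 833). The calcium-binding gene S100a6, chosen after its values were seen, stood at 96.9 CPM in the 38 cells and 13.7 CPM in the 363. The pericyte gene Rgs5 was lower in the 38 cells, at 999 CPM (876 to 1134) against 1978 CPM (1917 to 2041). Lrat stood at 1007 CPM (883 to 1143) in the 38 cells and 1130 CPM (1083 to 1177) in the 363, and Reln at 1867 and 1853 CPM, while Thy1, Cd34 and Clec3b had 0 UMIs in the 38. Myl9 stood at 190 CPM in the 38 cells and 186 CPM in the 363, and Tpm2 at 135 and 147 CPM. Without cells of 5 or more Gsn UMIs, Vim had a ratio of 1.48 over matched cells. The other named genes past 1.5-fold stayed past it, apart from Gsn, whose ratio this removal lowers by construction.

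WT replicate 1 allows only a small look at a second library. Cells that met the rule and also held Lrat or Reln numbered 36, of which 10 had at least 2 UMIs of Tagln (median 10245 UMIs) and 25 had none (median 7074 UMIs). Portal fibroblast markers summed to 2399 CPM in the 10 cells and 2679 CPM in the 25, against 73.6 and 32.2 CPM on the same sides in replicate 2. Endothelial genes were high and unequal too, with Kdr at 875 CPM in the 10 cells and 1795 CPM in the 25 (0.488, 0.392 to 0.603), Ptprb at 1427 and 2560 CPM (0.557) and Pecam1 at 195 and 422 CPM (0.461). In replicate 2 Kdr stood at 160 CPM in Tagln-expressing cells and 192 CPM in matched cells. Lrat stood at 527 CPM in the 10 cells and 181 CPM in the 25. Other stellate genes were above a ratio of 1 as well, with Reln at 3.41, Hand2 at 4.20, Hgf at 1.75 and Hhip at 1.17. Of the 15 leading higher genes 13 had at least 10 UMIs, and 10 of these were above a ratio of 1. The share of all genes above 1 is not given here, so counts of leading genes in replicate 1 stand without a background. Myl9 had 27 against 10 UMIs (5.55-fold, 2.60 to 12.8), Tpm2 20 against 5 UMIs (8.22-fold, 2.99 to 28.0) and Igfbp3 124 against 77 UMIs (3.31-fold, 2.47 to 4.46). Crip1 (0.141), Mmp23 (0.304) and Prss23 (0.389) went the other way, and Col1a1 had a ratio of 1.06 (0.742 to 1.49). Of the leading lower genes 5 were read, of which 3 were below 1, while Fcna (1.30, 0.855 to 1.97) and Rspo3 (3.62, 2.06 to 6.51) were above it. Depth and these markers differed between the 10 and the 25 cells, and their part in these ratios was not tested.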

How the data were processed

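Droplet-based 3′ RNA sequencing (Chromium Single Cell 3′ kit v2, per the labels' protocols) was read from 2 samples of 1 group, WT. The values are raw UMI counts per gene and cell, as deposited by the authors. The submitters' processing notes list Cell Ranger 2.1.1, Seurat 3.1 and GRCm38, and the role of each tool is not given in the sources used here. The number that ends each barcode was read as the replicate number of the titles.

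Each Tagln-expressing cell was paired with 1 unused Tagln = 0 cell nearest in total UMIs. UMIs were summed per side and scaled to a sum of 1000000 (CPM). The 5 genes that chose or limited the cells were left out of counts. A gene was read with at least 100 UMIs over both sides and counted past 1.5-fold. A count of 0 was set to 3 for ratios. With 1 library there is no test: intervals are exact at 95% (Poisson for levels, conditional binomial for ratios, binomial for shares) and cover counting error only. Where stated, cells were thinned to 3000 UMIs. Doublets were called with Scrublet in scanpy 1.11.5, free RNA was not subtracted, and edgeR 4.0.16 gave TMM factors as an alternative scaling.

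Genes named are the 15 leading higher and 10 leading lower genes by the interval bound nearest to 1 (mitochondrial, ribosomal protein, Gm and Rik genes left out), up to 4 genes per list with the largest ratio, and a set of check genes. Any others are said to have been chosen after their values were seen. Members and gene lists were chosen with earlier results of these data known. The scripts were tested on simulated data.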

Additional observations from a re-analysis of the deposited data

How the results depend on the processing

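Of 35 named genes past 1.5-fold, between 26 (paired within ranges of the score) and 35 stayed past it under the other settings, and none changed direction. All these settings reuse the same Tagln-expressing cells, or part of them, from which most of these genes were chosen. A kept direction thus follows in part from that choice. Rspo3 ended within 1.5-fold without matching, after thinning, within ranges, without doublets and without portal fibroblast UMIs, and Cnn2 and Cxcl1 in all of these but the removal of doublets. Calhm6 did so without matching and after thinning, Stk19 and Col4a2 without matching, and Rasl11a after thinning. The 94 higher and 48 lower genes were less stable. With all Tagln = 0 cells in place of matched ones, 8558 genes were read. Of these 126 (1.47%) were higher and 142 (1.66%) lower, against 1.58% and 0.808% of 5943 genes with matching. Among those calls were 47 of the 126 and 18 of the 142. With cells thinned to 3000 UMIs 134 of 6597 genes read (2.03%) were lower, 22 of them shared, and 116 (1.76%) were higher, 51 of them shared. At 2-fold 17 (0.286%) were higher and 5 (0.0841%) lower. At a minimum of 300 UMIs these were 30 and 5 of 2525 genes read (1.19% and 0.198%). At a minimum of 10 UMIs they were 964 and 847 of 11902 genes read (8.10% and 7.12%). The minimum of 300 UMIs reads fewer genes and that of 10 UMIs more. Of the list genes 19 were higher and 1 lower. At 2-fold these were 8 and 0, and at 10 UMIs 29 and 2. The lower count was 2 after thinning, 4 with Tagln of at least 3 UMIs, and 0 without matching, when paired within ranges, without called doublets and the highest 5% of doublet scores and, as added after seeing the data, without portal fibroblast UMIs. Shares of cells with Tagln in the central, middle and portal range were 12.1%, 13.8% and 25.7% without thinning, and 16.5%, 21.7% and 37.0% for 1 UMI in place of 2.

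No paired analysis was possible because both sides of every comparison are cells of 1 library. Genes under 100 UMIs over both sides entered no count of genes, and ratios given on fewer UMIs have wide intervals. A gene that is off in most cells cannot be told from one that was missed at this depth.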

Other observations

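Further genes outside the lists, chosen after their values were seen, differed between Tagln-expressing cells and matched Tagln = 0 cells. Smoc2, a secreted matricellular protein, had 369 UMIs in Tagln-expressing cells and 202 in matched cells, 1.82-fold higher (1.53 to 2.17). Tnxb, a tenascin, had 547 and 306 UMIs (1.78-fold, 1.54 to 2.05), and the phospholipid-binding annexin Anxa1 627 and 387 UMIs (1.61-fold, 1.42 to 1.83). The nuclear lamin gene Lmna had 327 and 200 UMIs (1.63-fold, 1.36 to 1.95), and the forkhead gene Foxs1 75 and 35 UMIs (2.13-fold, 1.41 to 3.28).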
